A study of Mus musculus with 16 samples.

Results

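Retroperitoneal fat of ovariectomised mice was set against that of orchidectomised mice while both were under dihydrotestosterone (DHT), the potent androgen formed from testosterone. The comparison used 12 of the 16 arrays of the series, and all 12 came from gonadectomised mice that received 0.1 mg of DHT under the skin. The 6 arrays of ovariectomised females and the 6 of orchidectomised males were taken 1, 3 or 6 h and 12, 18 or 24 h after the injection, with 1 array per sex and time, and each female array was paired with the male array of the same time. The other 4 arrays came from vehicle-treated mice and were not used here, so the values describe how the sexes differed under DHT and hold no response to it. No strain or age is given in the sources used here, and the labels describe fat gathered from all mice of a group, so that an array may hold the RNA of several pooled animals. Nothing says that the arrays of a sex were independent of each other apart from their time, so p-values reflect no more than the scatter of these 12 arrays, which may be technical.

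Retroperitoneal fat is a visceral white depot that lies behind the abdominal cavity. It holds lipid-filled adipocytes, which make triglyceride, release fatty acids by lipolysis and secrete hormones such as leptin, and a stroma of fibroblasts, vessels with smooth muscle and pericytes, macrophages and lymphocytes. DHT is a potent androgen that is not converted to oestrogen, and sex differences in fat can come from gonadal hormones, from hormone exposure earlier in life, from growth hormone patterns and from the sex chromosomes.

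Each array reports a signal per probe set, a group of oligonucleotides for 1 transcript, scaled by the authors so that every array has the same trimmed mean. A gene was represented by 1 probe set, and 5522 of 7972 autosomal genes with a mean signal above 115 were tested. Differences are log2(signal + 16) of the ovariectomised minus the orchidectomised array at the same time, averaged over the 6 pairs, and are given with their standard error. A gene is called when its limma p-value, adjusted by Benjamini-Hochberg over the 5522 genes, is under 0.05. Array medians lay between 194 and 219.5 on the ovariectomised arrays and between 184 and 194 on the orchidectomised arrays, a difference in 6 of 6 pairs (exact two-sided sign-flip test over 6 pairs, p = 0.03125, the smallest such a test can give). Correlations between arrays across genes were 0.8957 to 0.9781 within the ovariectomised, 0.9392 to 0.9746 within the orchidectomised and 0.8830 to 0.9526 between them. The sex labels were checked on genes outside the tested set. Xist, the RNA that silences an X chromosome, had signals of 1033 to 2200.2 on the ovariectomised arrays, against 4.74 to 61.0 on the orchidectomised arrays. The Y-linked Eif2s3y read 12.2 to 52.6 on the ovariectomised arrays and 172 to 336 on the orchidectomised arrays. Uty, also Y-linked, overlapped slightly (7.34 to 66.6 on the ovariectomised and 63.4 to 126 on the orchidectomised arrays), and the ranges of Kdm5d overlapped widely (6.43 to 41.8 on the ovariectomised and 7.61 to 37.5 on the orchidectomised arrays).

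Under DHT, fat of ovariectomised mice had higher signals of matrix, smooth muscle, macrophage and cell cycle genes, and lower signals of genes for lipid storage, lipolysis, mitochondrial oxidation and drug metabolism, each counted below. Of the 5522 genes, 726 were called (13.1%), 398 higher (7.21%) and 328 lower (5.94%) in ovariectomised mice. Among the called genes, the higher ones differed by more on the scale used here, and these sizes were not compared on other scales. The signal filter used the mean over all 12 arrays, so a gene dim in 1 sex could enter through the other. Cnn1 had mean signals of 512 in ovariectomised and 21.5 in orchidectomised mice, and Pon1 113 and 519. A difference of at least 2-fold was reached by 89 of the higher and 24 of the lower genes, and of at least 4-fold by 16 and 2. The median difference was 0.69 among the higher and -0.53 among the lower genes, against 0.00 over all genes tested. All 6 pairs had the same sign in 671 of the 726 called genes, and in 1113 (20.2%) of all genes tested, 10.7% higher and 9.49% lower. The 6 ovariectomised arrays lay wholly above or below the 6 orchidectomised ones for 487 genes (8.82%), above for 265 (4.8%) and below for 222 (4.02%). The split between higher and lower depends on the signal filter and on the scale. With the filter at the 60th percentile 307 genes were called higher and 330 lower (48.2% higher). When each array was centred on its median signal, which shifted the median difference of all genes to -0.10, 281 genes were called higher and 547 lower, so that 33.9% of the calls were higher in place of 54.8%. In bulk tissue fewer cells of a type and less RNA per cell cannot be told apart, and this holds for every gene below.

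**Figure D1:**
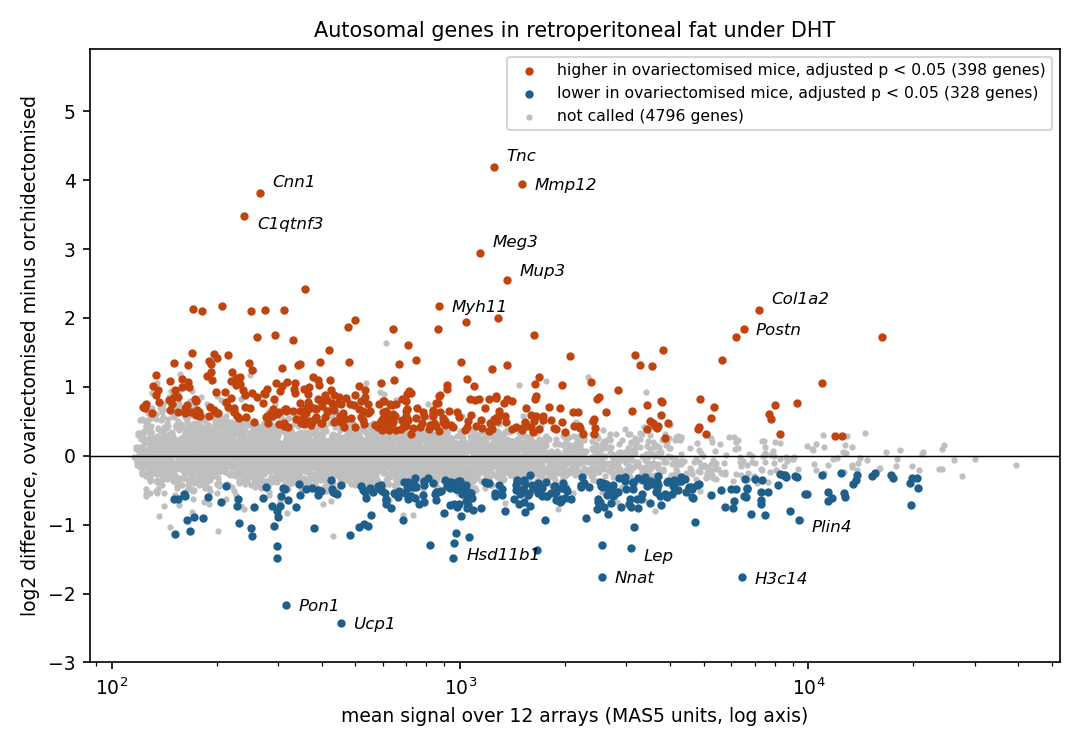
Mean log2 difference (ovariectomised minus orchidectomised, vertical) of each of 5522 autosomal genes against its mean signal over the 12 arrays (horizontal, log axis). Orange points are the 398 genes called higher and blue points the 328 called lower in ovariectomised mice, grey points were not called, and the largest differences upward (Tnc, Mmp12, Cnn1) exceed the largest downward (Ucp1, Pon1).

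The plot of difference against signal shows 3 genes above 3.5 on the log2 scale and none below -2.5. The lower genes sat at higher signals, with a median of 1666 against 591 for the higher genes and 531 for all genes tested. For 122 called genes the array carried other probe sets above the same signal limit, and 120 of these 143 (83.9%) differed in the same direction.

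The promoters of some of the genes that differed most hold the letters of a TATA box, the element at which TATA-binding protein positions transcription. TATAAA, searched on the strand of the gene only, occurred in the 300-base RefSeq promoter (250 bases before to 50 after the start) of 12 of the 58 genes at least 2-fold higher that had a promoter there (20.7%), and in 4 of 22 at least 2-fold lower (18.2%). Among all called genes with a promoter it occurred in 25 of 297 higher (8.42%) and 20 of 265 lower (7.55%). It occurred in 6.93% of all tested genes with a promoter and in 8.32% of all 32851 promoters. It was 1 of 14 motifs searched, all chosen after the values were seen, and a match is a description only. AGAACA, the core shared by androgen and glucocorticoid response elements, was searched on either strand. It was found in 8 of 58 genes at least 2-fold higher (13.8%) and in 5 of 22 at least 2-fold lower (22.7%). Among all called genes with a promoter it was in 41 of 297 higher (13.8%) and 41 of 265 lower (15.5%), against 14.8% of all tested genes. Of the 46 named genes at least 2-fold apart, 37 had a RefSeq promoter. In each of the 5 shown here TATAAA begins 20 to 40 bases before the start. They are examples, as not every one of the 37 promoters was considered for printing. The sequences are from RefSeq (GRCm38.p6), run 5′ to 3′ over the 60 bases before the start, and carry TATAAA in capitals. They come from chr12:109540936-109540995 (Meg3), chr3:54361047-54361106 (Postn), chr11:67200042-67200101 (Myh1), chr3:89136563-89136622 (Pklr) and chr7:30787845-30787904 (Krtdap), all on the plus strand. Meg3, Postn and Myh1 were higher in ovariectomised mice, and Pklr and Krtdap lower.
Meg3: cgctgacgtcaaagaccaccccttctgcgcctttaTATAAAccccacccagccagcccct
Postn: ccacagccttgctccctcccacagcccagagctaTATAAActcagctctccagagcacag
Myh1: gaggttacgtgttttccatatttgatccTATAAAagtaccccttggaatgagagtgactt
Pklr: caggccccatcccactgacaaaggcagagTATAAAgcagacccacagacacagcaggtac
Krtdap: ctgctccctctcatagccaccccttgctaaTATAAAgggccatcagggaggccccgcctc

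Genes of the extracellular matrix formed the group with the most calls. Of 44 tested genes for collagens and other matrix proteins, 26 were called higher and 0 lower in ovariectomised mice, with a median difference of 0.63 and 42 of 44 differences above 0. Their summed signal was 183950 to 240090 on the ovariectomised arrays and 112250 to 119830 on the orchidectomised arrays, with no overlap. Tnc encodes tenascin-C, a glycoprotein of remodelling matrix (chromosome 4, 63959785 to 64047015 in GRCm38). Its signal was 1860.3, 2748, 2583, 2143, 2073 and 2934 over the 6 times from 1 to 24 h in ovariectomised mice, against 112, 108, 109.5, 114, 124 and 119 in orchidectomised mice. Every ovariectomised array was far above every orchidectomised array. The mean signals were 2390.0 ± 425 on the ovariectomised arrays and 114 ± 5.92 on the orchidectomised arrays (SD, n = 6 each), a difference of 4.19 ± 0.12 (95% interval 3.92 to 4.46, limma adjusted p = 4.39e-08). A second Tnc probe set, of low signal, gave 2.97 ± 0.23.

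Col1a2 encodes a chain of type I collagen, the main fibre-forming collagen (chromosome 6, 4505618 to 4541543). Its signal was 8319.7 to 16678 (median 11261) on the ovariectomised arrays, against 2454 to 2826 (median 2665) on the orchidectomised arrays, a difference of 2.12 ± 0.11 (adjusted p = 2.94e-06). Another Col1a2 probe set, of mean signal 2074, did not share this, at -0.31 ± 0.21 with 4 of 6 pairs lower. Both the size and the direction of the Col1a2 difference therefore depend on the probe set. Postn encodes periostin, a matricellular protein made by fibroblasts, and had signals of 8825 to 12234 (median 9599.8) on the ovariectomised arrays, against 2299 to 3463 (median 2689) on the orchidectomised arrays. Thbs2, for thrombospondin 2, an inhibitor of new vessel growth, read 642 to 857 (median 755) on the ovariectomised arrays, against 185 to 210.3 (median 194) on the orchidectomised arrays. For both genes the groups were far apart, by 1.84 ± 0.13 and 1.87 ± 0.12 on the log2 scale (adjusted p = 2.34e-05 and 1.16e-05). Mfap4, a microfibril-associated glycoprotein, differed by 2.41 ± 0.31, although its other probe set gave 0.33 ± 0.40. Ccn4, a secreted protein induced by Wnt signals, differed by 2.14 ± 0.19, and Ckap4, a membrane protein of the endoplasmic reticulum, by 2.18 ± 0.27. Mfap4, Ccn4 and Ckap4 were not on the counted matrix list. The matrix count lay between 22 and 29 higher and at 0 lower under the 20 alternative settings.

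Smooth muscle and pericyte genes, which mark the contractile cells around vessels, were the list with the largest share called higher. Of 17 tested, 12 were called higher and 1 lower, with a median of 0.55. Cnn1, the contractile regulator calponin 1, had signals of 313 to 777 (median 524) on the ovariectomised arrays, against 12.4 to 46.2 (median 16.1) on the orchidectomised arrays. It differed by 3.81 ± 0.25 (adjusted p = 1.36e-05), and its orchidectomised signals were low enough that the added 16 shrinks the fold. Myh11, the smooth muscle myosin heavy chain, was at 1018 to 1913 (median 1294) on the ovariectomised arrays, against 244 to 399 (median 271) on the orchidectomised arrays. Smtn, the smooth muscle protein smoothelin, and Tagln, which encodes transgelin, differed by 2.12 ± 0.21 and 1.75 ± 0.15 (adjusted p = 0.000186 and 6.11e-05), and in both no ovariectomised array overlapped an orchidectomised one. The lower gene was Sncg, gamma-synuclein, which adipocytes also make. Sncg read 1080.4 to 1732 (median 1593) on the ovariectomised arrays, against 3245 to 4211 (median 3590.3) on the orchidectomised arrays, a difference of -1.29 ± 0.12 (adjusted p = 0.000102), and its other probe set gave -1.80 ± 0.12. Markers of endothelium, the other vessel cell, were called higher in 0 and lower in 2 of 18.

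**Figure D2:**
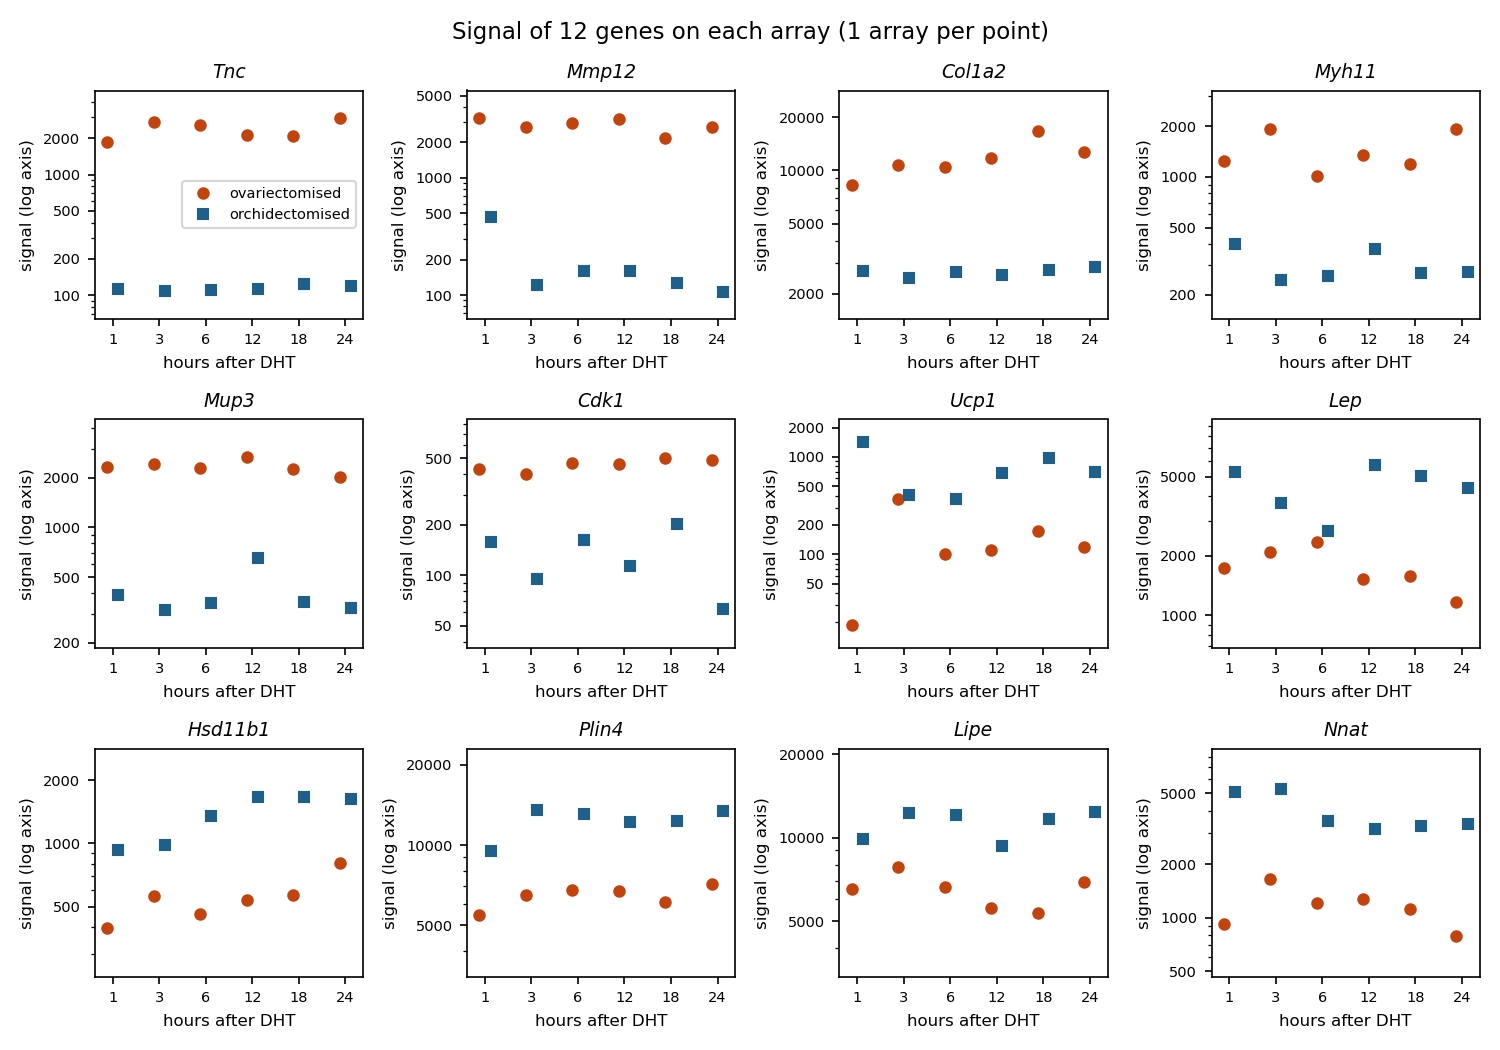
Signal (vertical, log axis) of 12 genes on each array against hours after DHT, with 1 array per point, ovariectomised mice as orange circles drawn just left of orchidectomised mice as blue squares. Tnc, Mmp12, Col1a2, Myh11, Mup3 and Cdk1 lie above the orchidectomised arrays at all 6 times, while Ucp1, Lep, Hsd11b1, Plin4, Lipe and Nnat lie below, with Ucp1 nearly level at 3 h and Lep at 6 h.

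The plot of 12 genes by array shows that the separation was present on the arrays taken 1 h after DHT. Within the genes plotted, the gap was narrowest for Ucp1 at 3 h (367 in ovariectomised against 406 in orchidectomised mice) and for Lep at 6 h (2349 in ovariectomised against 2667 in orchidectomised mice).

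Macrophage genes were higher in ovariectomised fat, counted on a marker list that does not hold Mmp12 or Adam8. Of 20 tested markers 11 were called higher and 0 lower, with a median of 0.46, and their summed signal was 41560 to 55480 on the ovariectomised arrays and 31203 to 39367 on the orchidectomised arrays. Mmp12, the macrophage elastase (chromosome 9, 7344397 to 7360461), had signals of 3251, 2696, 2941, 3158, 2168 and 2684 from 1 to 24 h in ovariectomised mice and 462, 121, 161, 161, 126 and 107 in orchidectomised mice. The orchidectomised array at 1 h was the highest of its group, yet far below the lowest ovariectomised array. The difference was 3.95 ± 0.20 (adjusted p = 2.06e-06), and 3.00 ± 0.19 on the other probe set. Ctss, the lysosomal protease cathepsin S of antigen-presenting cells, read 4070.5 to 5744 (median 4371) on the ovariectomised arrays, against 1449.7 to 2555 (median 1773) on the orchidectomised arrays, with a difference of 1.32 ± 0.09 (adjusted p = 2.05e-05). Itgb2, an integrin chain of leukocytes, and Mpeg1, a pore-forming protein of macrophages, differed by 1.03 ± 0.14 and 1.02 ± 0.15. Adam8, a membrane protease of leukocytes, differed by 2.10 ± 0.17 (adjusted p = 4.19e-05). Without the 12 h pair 7 macrophage genes were called, and 6 without both the 1 and 12 h pairs, which hold the orchidectomised 1 h array, on which 5 named genes lay far from the other orchidectomised arrays, and the ovariectomised 12 h array with its high pancreas markers.

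Other immune lists also had more genes called higher than lower. For B and plasma cells 4 of 10 markers were called higher and 0 lower (median 0.57), among them Cd79a, a chain of the B cell receptor (0.91 ± 0.18), and Jchain, which joins secreted antibodies (0.80 ± 0.13). For T cells 2 of 7 were called higher, the chemokine Ccl5 (0.97 ± 0.21) and Thy1, which fibroblasts also carry (0.63 ± 0.13). Interferon response and antigen presentation had 6 of 32 higher and 0 lower (median 0.22). The interferon-inducible GTPase Iigp1 read 1127 to 2309 (median 1597) on the ovariectomised arrays, against 648 to 1048 (median 901) on the orchidectomised arrays (0.84 ± 0.13, adjusted p = 0.00238). Without the 12 h pair the interferon list had 3 calls, and without the 1 and 12 h pairs 1. Acute phase and inflammation genes were higher in 5 of 20 and lower in 0. Saa3, the serum amyloid A made by mouse fat and macrophages, was at 1916 to 3876 (median 3050.2) on the ovariectomised arrays, against 728 to 1695 (median 1098) on the orchidectomised arrays (1.45 ± 0.21, adjusted p = 0.00139). Il1rn, the antagonist of interleukin 1, differed by 1.07 ± 0.18, and Il1r1, its receptor, by 0.95 ± 0.15. Without the 6 h pair 3 of these inflammation genes were called.

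Cell cycle genes were higher as well, with 9 of 24 called higher, 0 lower and 23 of 24 differences above 0 (median 0.40). Cdk1, the kinase that drives entry into mitosis, read 399.8 to 500.2 (median 465) on the ovariectomised arrays, against 62.6 to 201 (median 135) on the orchidectomised arrays. The groups did not overlap, and the difference was 1.75 ± 0.19 (adjusted p = 0.000319). Stmn1, a regulator of microtubules, differed by 0.92 ± 0.10, Rrm2, a subunit of ribonucleotide reductase, by 0.76 ± 0.16, and Lig1, a DNA ligase of replication, by 1.16 ± 0.22. Ccnd1, a cyclin of the early cell cycle that is also an oestrogen target, differed by 0.47 ± 0.10 (limma adjusted p = 0.0129). It was the single call among 11 tested oestrogen response genes (9.09%, against 13.1% of all genes tested). Without the 1 and 12 h pairs 4 cell cycle genes were called.

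Genes of adipocyte differentiation were mixed. Of 23 tested 7 were called higher and 1 lower, and the median was -0.04 with 10 of 23 above 0. The higher ones were Sfrp1, Sfrp2, Pdgfra, Pdgfrb, Cd34, Thy1 and Dlk1, and the lower one was Cebpa, a transcription factor of adipocytes. Sfrp1 and Sfrp2 encode secreted antagonists of Wnt signalling. Sfrp2 read 2148 to 2445 (median 2329.8) on the ovariectomised arrays, against 798 to 1375 (median 1044) on the orchidectomised arrays, a difference of 1.14 ± 0.12 (adjusted p = 0.000325), and Sfrp1 differed by 2.11 ± 0.26 (adjusted p = 0.000605). Pdgfra, the growth factor receptor of adipocyte progenitors, differed by 0.59 ± 0.12, with its 2 other probe sets at -0.12 ± 0.31 and -0.35 ± 0.26. Pparg, the master regulator of adipocytes, was not called at -0.26 ± 0.14 (95% interval -0.57 to 0.05, adjusted p = 0.258). Without the 1, 6 or 12 h pair 4 genes of the list were called higher, and without the 1 and 12 h pairs 3.

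**Figure D3:**
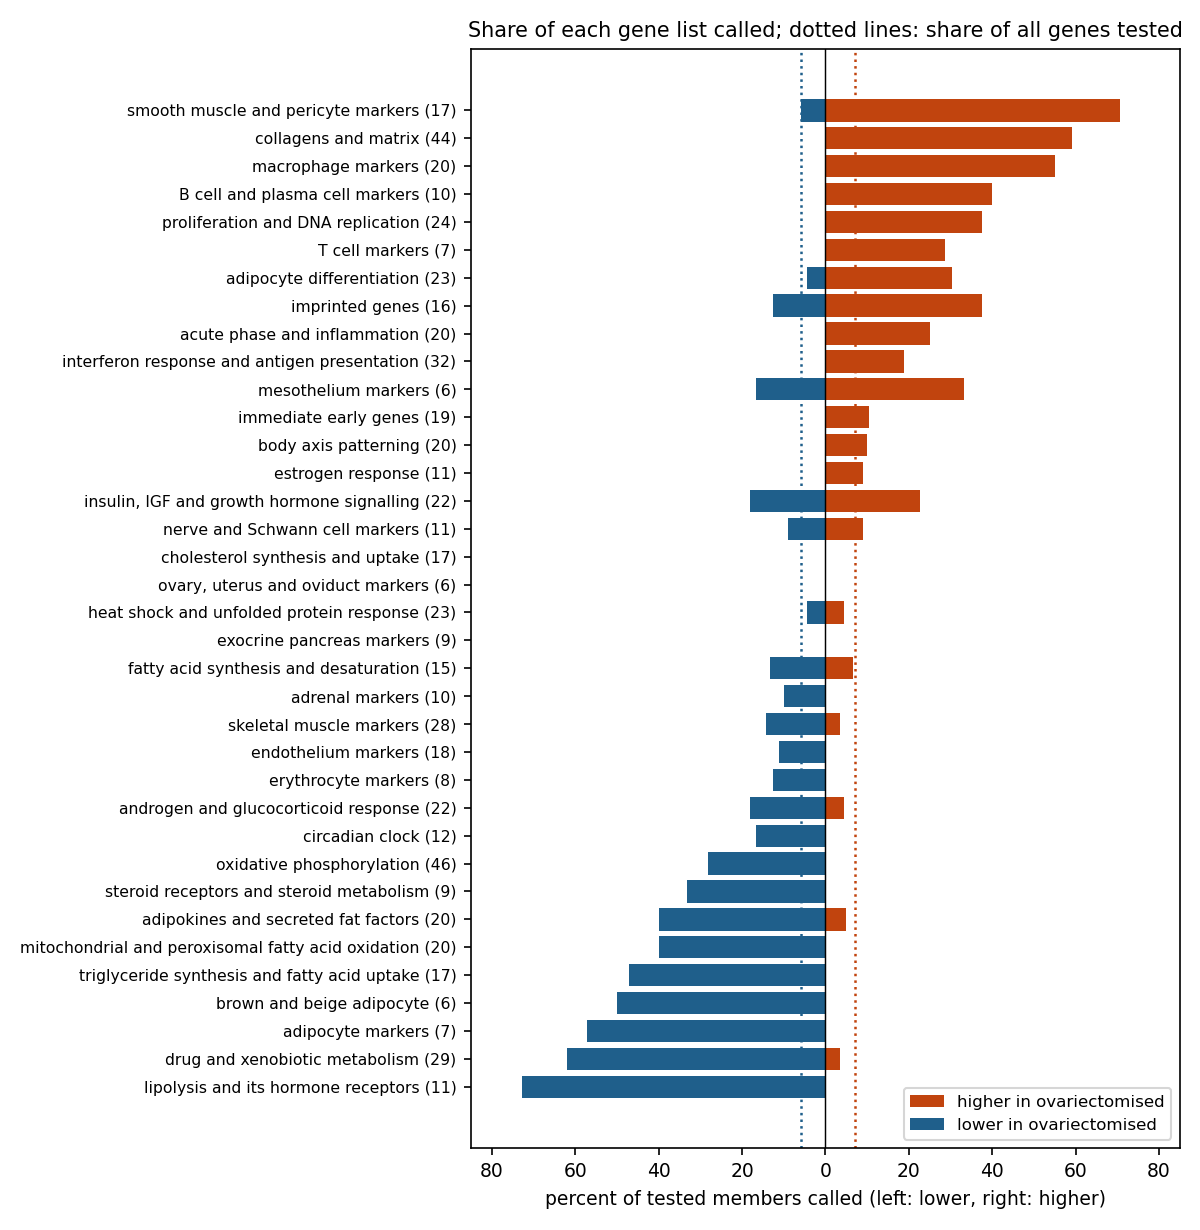
Percent of the tested members of gene lists (tested number in brackets) called higher (right, orange) or lower (left, blue) in ovariectomised mice. Lists are ordered by the percent called higher minus the percent called lower, and the lists with the fewest tested members are left out. Dotted lines mark the shares over all genes tested, 7.21% higher and 5.94% lower, and the longest bars are smooth muscle, matrix and macrophage genes on the right and lipolysis and drug metabolism on the left.

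The plot of shares by list shows that matrix, macrophage, B cell and cell cycle lists had no member called lower, and that lipolysis, triglyceride synthesis, fatty acid oxidation and oxidative phosphorylation had none called higher.

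Genes of lipid handling were more often lower than higher in ovariectomised mice, as counted here. Lipolysis is the release of fatty acids from stored fat. In its list, which includes its hormone receptors, 8 of 11 tested genes were called lower and 0 higher (median -0.49). Their summed signal was 32091 to 39647 on the ovariectomised arrays and 50086 to 62058 on the orchidectomised arrays. Lipe, the hormone-sensitive lipase, read 5355 to 7844 (median 6599.8) on the ovariectomised arrays, against 9328 to 12335 (median 11840.3) on the orchidectomised arrays. All 6 ovariectomised arrays lay below all 6 orchidectomised arrays, with a difference of -0.80 ± 0.08 (adjusted p = 0.000242). Npr3, the clearance receptor that removes natriuretic peptides, differed by -1.37 ± 0.19 (adjusted p = 0.00123), and by -0.47 and -0.53 on 2 other probe sets. Aqp7, the channel through which glycerol leaves adipocytes, differed by -0.76 ± 0.12, and Gnai1, an inhibitory G protein, by -0.75 ± 0.11. As Gnai1 is inhibitory, the count gives no direction of lipolysis itself. The lipolysis count stayed between 6 and 8 under the 20 alternative settings.

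Triglyceride synthesis and fatty acid uptake had 8 of 17 genes called lower and 0 higher (median -0.29). Plin4, a coat protein of lipid droplets, had signals of 5455 to 7121 (median 6614) on the ovariectomised arrays, against 9518 to 13542 (median 12708) on the orchidectomised arrays, a difference of -0.93 ± 0.07 (adjusted p = 2.34e-05). Cidec, which enlarges lipid droplets, was at 3820.3 to 6592 (median 4815) on the ovariectomised arrays, against 7218 to 10557 (median 8569) on the orchidectomised arrays (-0.84 ± 0.09, adjusted p = 0.000266). Slc27a1, a fatty acid transporter, differed by -0.61 ± 0.14. Without the 1, 12 or 18 h pair 4 genes of this list were called, and without the 6 h pair 5. Fatty acid synthesis split, with Elovl6, which lengthens fatty acids, higher (0.79 ± 0.17, adjusted p = 0.0152) and Thrsp, a regulator of lipogenesis, and Pcx, pyruvate carboxylase, lower (-0.29 ± 0.08 and -0.29 ± 0.07), and 12 of 15 genes not called. The 2 lower calls were both lost without the 1, 6, 12 or 18 h pair, without a signal filter, with eBayes without a trend and with a skeletal muscle covariate, and the higher call was lost without the 6 h pair. Pklr, the liver-type pyruvate kinase of glycolysis, had signals of 74.2 to 371 (median 128) on the ovariectomised arrays, against 195 to 604 (median 396) on the orchidectomised arrays. The groups overlapped for Pklr, lower in 6 of 6 pairs with a difference of -1.32 ± 0.30 (limma adjusted p = 0.0172). Its other, dim probe set gave -0.23 ± 0.39 with 4 of 6 pairs higher. Pklr was on neither list counted here.

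Some genes of mitochondrial oxidation were also lower in signal, and most were not called. Among fatty acid oxidation genes 8 of 20 were called lower and 0 higher (median -0.37), and among oxidative phosphorylation genes 13 of 46 and 0 (median -0.26). Acaa2, the thiolase of the last step of beta-oxidation, read 3967 to 5573 (median 4553) on the ovariectomised arrays, against 7045 to 7750.1 (median 7425) on the orchidectomised arrays, a difference of -0.65 ± 0.09 (adjusted p = 0.00129). Uqcrc2, a core subunit of complex III, differed by -0.62 ± 0.09, and Cox7a2, a subunit of cytochrome c oxidase, by -0.58 ± 0.11. Summed oxidative phosphorylation signals were 127990 to 164770 on the ovariectomised arrays and 169290 to 187160 on the orchidectomised arrays. The fatty acid oxidation count was 5 without the 6, 12 or 18 h pair and 1 without the 1 and 12 h pairs together. The oxidative phosphorylation count was 7 without the 6 or 18 h pair, 3 without the 1 and 12 h pairs, and 6 with a skeletal muscle covariate, described below.

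Thermogenic genes, which mark brown or beige adipocytes, were lower in 3 of 6 tested members. Ucp1, the uncoupling protein that turns fuel oxidation into heat (chromosome 8, 83290348 to 83298456), had signals of 18.7, 367, 101, 109, 174 and 119 from 1 to 24 h in ovariectomised mice, against 1422, 406, 372, 682, 980.0 and 708 in orchidectomised mice. Ovariectomised signals were below the orchidectomised signal in each pair, by little at 3 h and most at 1 h. The difference of -2.42 ± 0.50 (95% interval -3.53 to -1.32, adjusted p = 0.0106) was the largest of the lower genes and the least precise of the 30 largest, and the other probe set gave -0.80 ± 0.30. Cidea, a lipid droplet protein of thermogenic fat, read 328 to 718 (median 499) on the ovariectomised arrays, against 1076 to 1806 (median 1401) on the orchidectomised arrays (-1.49 ± 0.19, adjusted p = 0.000863). Cox8b, an oxidase subunit of brown fat and muscle, was at 1458 to 1821 (median 1577) on the ovariectomised arrays, against 2265 to 2918 (median 2526) on the orchidectomised arrays (-0.63 ± 0.10, adjusted p = 0.00248).

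Enzymes of drug and xenobiotic metabolism were lower in 18 of 29 and higher in 1 (median -0.42), the higher one being Cyp1b1. Ephx1, the microsomal epoxide hydrolase, had signals of 95.2 to 281 (median 115) on the ovariectomised arrays, against 207 to 666 (median 484) on the orchidectomised arrays. Its groups overlapped, with a difference of -1.49 ± 0.23 in 6 of 6 pairs (adjusted p = 0.00205). Inmt, which methylates indole amines, read 166 to 682 (median 507) on the ovariectomised arrays, against 476 to 1716 (median 1189) on the orchidectomised arrays (-1.30 ± 0.11, adjusted p = 6.11e-05). Inmt signals were lowest at 1 h in both sexes, 166 in ovariectomised and 476 in orchidectomised mice. Fmo5, a flavin monooxygenase, differed by -0.90 ± 0.17, with a dim other probe set at 0.19 ± 0.19. Cyp1a1, the oxidase induced by aryl hydrocarbons, differed by -0.93 ± 0.16 on its brighter probe set and by 0.91 ± 0.23 on a dimmer one, so that its direction is not settled. Pon1, the paraoxonase carried on high-density lipoprotein, read 40.3 to 187 (median 117) on the ovariectomised arrays, against 376 to 665 (median 529) on the orchidectomised arrays (-2.16 ± 0.31, adjusted p = 0.00145). Pon1 was not on the counted list, of which 8 genes were called lower without the 1 and 12 h pairs.

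Genes of steroid receptors and steroid metabolism were called lower in 3 of 9 and higher in 0. Hsd11b1, the enzyme that regenerates active glucocorticoid inside cells, had signals of 395, 562, 465, 540.4, 566 and 809 from 1 to 24 h in ovariectomised mice, against 932, 981, 1353, 1660.4, 1661 and 1632 in orchidectomised mice. Ovariectomised signals were lower at every time without overlap, and those of both sexes were lowest at 1 h. The difference was -1.27 ± 0.13 (adjusted p = 0.000212). Hsd17b4, a peroxisomal enzyme that handles steroids and fatty acids, differed by -0.49 ± 0.11 and Hsd3b7, of bile acid synthesis, by -0.53 ± 0.15. The receptors named here were at low signal. Esr1, the oestrogen receptor, was dim at 27.7 to 74.4 on the ovariectomised and 35.3 to 60.04 on the orchidectomised arrays. Pgr, the progesterone receptor, and Nr3c1, the glucocorticoid receptor, were also under the signal limit and not tested.

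Of 22 established targets of androgen and glucocorticoid receptors 4 were called lower, 1 higher and 17 not called, with a median of -0.23 and 6 of 22 differences above 0. Fkbp5, a co-chaperone of steroid receptors that they induce, had signals of 515, 1240.2, 2454, 2648, 1574 and 1102 from 1 to 24 h in ovariectomised mice, against 829, 1493, 2318, 2755, 2096 and 1606 in orchidectomised mice. In both sexes the 1 h array was lowest and the 12 h array highest. The sex difference of -0.31 ± 0.11 was not called (95% interval -0.56 to -0.05, adjusted p = 0.108). Mt2, metallothionein 2, read 1262, 3400.0, 10009.8, 6565, 5155 and 3374 in ovariectomised and 2147, 4797, 7729, 7629, 5617 and 4805 in orchidectomised mice, highest at 6 h in both. Its difference of -0.29 ± 0.13 was not called either (adjusted p = 0.192). Zbtb16, a transcription factor induced by both hormones, was lower, with a difference of -0.56 ± 0.13 (adjusted p = 0.017), as was the stress gene Gadd45g at -0.57 ± 0.13, while its relative Gadd45a was higher at 0.71 ± 0.18. Without the 1, 6 or 12 h pair 2 of these genes were called lower, and without the 1 and 12 h pairs 0.

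Among secreted products of fat 8 of 20 were called lower and 1, Saa3, higher. Lep encodes leptin, the hormone that reports fat stores to the brain (chromosome 6, 29060221 to 29073876). Its signal was 1727, 2095, 2349, 1523, 1581 and 1168 from 1 to 24 h in ovariectomised mice, against 5302, 3701, 2667, 5706, 5009.6 and 4366 in orchidectomised mice. No ovariectomised array reached the lowest orchidectomised array. The difference was -1.34 ± 0.21 (adjusted p = 0.00248) and -1.22 ± 0.17 on the other probe set. Adipoq, the adipocyte hormone adiponectin, was not called, at 19206 to 28657 (median 21883) on the ovariectomised arrays, against 21143 to 31645 (median 26037) on the orchidectomised arrays (-0.19 ± 0.09, 95% interval -0.39 to 0.01, adjusted p = 0.211). Agt, the precursor of angiotensin, differed by -0.67 ± 0.10, and Retn, which encodes resistin, by -0.32 ± 0.08. C1qtnf3, a secreted relative of adiponectin, went the other way, at 345 to 649.9 (median 419) on the ovariectomised arrays, against 7.52 to 39.7 (median 26.6) on the orchidectomised arrays (3.47 ± 0.22, adjusted p = 1.36e-05). C1qtnf3 was not among the 20 counted. Without the 6 h pair 5 secreted factors were called lower. Of the 7 tested adipocyte markers 4 were called lower and 0 higher (Lep, Retn, Lipe and Cidec), and their summed signal was 49512 to 65301 on the ovariectomised arrays and 62877 to 85268 on the orchidectomised arrays.

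Imprinted genes, which are expressed from the copy of 1 parent, were called in both directions, 6 of 16 higher and 2 lower. Meg3, a long noncoding RNA made from the maternal copy (chromosome 12, 109540996 to 109571729), had signals of 1578, 2078, 2043, 1895, 2044 and 2419 from 1 to 24 h in ovariectomised mice and 499, 179, 342, 129, 324 and 168 in orchidectomised mice. The ovariectomised signals were tightly grouped and the orchidectomised ones were low and scattered. The difference was 2.94 ± 0.26 (adjusted p = 6.84e-05), and 1.25 ± 0.10 on the other probe set. Nnat, neuronatin, a small membrane protein made from the paternal copy, read 790.4 to 1660.2 (median 1162) on the ovariectomised arrays, against 3149.6 to 5267 (median 3433) on the orchidectomised arrays (-1.75 ± 0.14, adjusted p = 4.56e-05). Grb10, an adaptor that restrains insulin receptor signals, differed by 1.01 ± 0.21. Without the 6 h pair 3 imprinted genes were called higher, and without the 12 h pair or the 1 and 12 h pairs 4.

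Genes tied to growth hormone and insulin were also mixed, 5 of 22 higher and 4 lower, and the lower count was 1 without the 1, 6 or 12 h pair and 2 without the 18 h pair. Socs2, the growth hormone-induced brake on its own receptor, had signals of 798 to 1107 (median 925) on the ovariectomised arrays, against 256 to 504 (median 364) on the orchidectomised arrays (1.33 ± 0.15, adjusted p = 0.000416). Akt2, the kinase that carries the insulin signal in fat, read 2096 to 2882 (median 2389.5) on the ovariectomised arrays, against 3229 to 4539.9 (median 3680.0) on the orchidectomised arrays (-0.63 ± 0.07, adjusted p = 0.000481). Mup3, a major urinary protein that carries pheromones and in mouse liver follows the sex-specific pattern of growth hormone, was at 2313, 2427, 2282, 2662, 2274 and 2037 from 1 to 24 h in ovariectomised and 386, 316, 346, 650.5, 353 and 322 in orchidectomised mice. All 6 ovariectomised arrays were above all orchidectomised arrays (2.55 ± 0.12, adjusted p = 1.7e-06, other probe set 1.81 ± 0.14). Mup genes are near-identical copies, so the probe set may read several of them. Mup3 was not on the counted list. The transcription factors Wt1 and Tcf21, which pattern visceral mesoderm, were the 2 calls among 20 patterning genes (10%, against 13.1% of all genes tested). They were higher by 1.00 ± 0.18 and 1.00 ± 0.18 (limma adjusted p = 0.00498 and 0.00529).

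The remaining genes of the largest differences were not on the lists counted above. H3c14 among them, of replication type, was lower, while all calls of the cell cycle list were higher. Tmem45a, a transmembrane protein, was higher by 2.10 ± 0.17 (adjusted p = 3.96e-05). H3c14, a replication-type histone H3 gene with near-identical copies, read 2491 to 3679 (median 2788) on the ovariectomised arrays, against 7631 to 12914 (median 9919) on the orchidectomised arrays and was lower, with a difference of -1.77 ± 0.13 (adjusted p = 2.33e-05). Krtdap, a secreted protein of differentiating keratinocytes, was lower at -1.16 ± 0.15, and Apmap, a membrane protein of adipocytes, at -1.14 ± 0.18. Nr1d1 and Nr1d2, the repressors of the circadian clock, were the 2 calls among 12 clock genes (16.7%, against 13.1% of all genes tested). Nr1d1 had signals of 469, 462, 351, 872, 976 and 812 from 1 to 24 h in ovariectomised mice, against 938, 1906, 1316, 1093, 1553 and 1983 in orchidectomised mice. It was lower in 6 of 6 pairs, with a difference of -1.18 ± 0.21 (adjusted p = 0.00487) with overlap, and the clock time of each array is not given in the labels.

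Tissues next to retroperitoneal fat were looked for by their markers. Skeletal muscle genes were clearly present and were called lower in 4 of 28 and higher in 1 (median -0.24), with summed signals of 54890 to 79125 on the ovariectomised arrays and 70527 to 98782 on the orchidectomised arrays, which overlap. Their median difference was -0.34, -0.55, 0.54, -0.23, -0.60 and -0.35 over the times from 1 to 24 h, above 0 at 6 h and below 0 at the other times. Myh4, a fast muscle myosin, was lower at -0.70 ± 0.15 and Myh1, another fast myosin, higher at 1.36 ± 0.38, both with overlapping groups. With the mean log2 level of the muscle markers as a covariate, a fit added after the values were seen, 487 genes were called, 288 higher and 199 lower, of which 481 were among the 726. In that fit 25 matrix genes (26 without the covariate), 8 macrophage genes (11 without) and 3 interferon genes (6 without) were called higher. It called 8 lipolysis genes (8 without), 7 fatty acid oxidation genes (8 without), 4 triglyceride synthesis genes (8 without), 14 drug metabolism genes (18 without), 2 androgen and glucocorticoid targets (4 without) and 1 growth hormone and insulin gene (4 without) lower. Without the 6 h pair 10 muscle genes were called lower.

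Markers of exocrine pancreas stood out on 1 array. Their summed signal was 94115 on the ovariectomised array at 12 h, against 3666 to 6757 on the other 5 ovariectomised arrays and 4394 to 6127 on the orchidectomised arrays. None of the 9 tested was called by limma and 1 had an unadjusted p under 0.05, although their median difference was 0.92. Without the 12 h pair 531 genes were called in all, 316 higher and 215 lower. For antisense control probe sets an exact two-sided sign-flip test over 6 pairs gave p = 0.594. Of 3 kidney markers tested, Slc7a7, an amino acid transporter that macrophages also carry, was called higher (0.93 ± 0.21) and Pvalb, a calcium-binding protein also of fast muscle, lower (-0.60 ± 0.12). Of 10 adrenal markers tested 1 was called lower (10%, against 13.1% of all genes tested). This was Fdx1, a mitochondrial ferredoxin, which was not called without the 6, 12 or 18 h pair. Markers of ovary, uterus and oviduct gave 0 calls by limma among 6 tested, of testis and accessory glands 0 of 2, and of mammary and epithelial gland 0 of 4, where 2, 1 and 1 genes had p under 0.05 before adjustment.

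The sex difference was also compared between late times (12, 18 and 24 h) and early times (1, 3 and 6 h). No gene was called (0.0%), 241 had an unadjusted p under 0.05, and the smallest adjusted p was 0.298. The 3 genes of smallest p each way were Actb, Dhrs3 and Rps13 with a late minus early value above 0 and Map1s, Rps19 and H3c14 with one below 0. The sex difference of Actb over all times was 0.16 ± 0.12, and 2 of its 7 other probe sets shared this sign. Those of mean signal 1375 and 1567 gave -1.47 ± 0.39 and -1.40 ± 0.31, each lower in 6 of 6 pairs. The cause of this disagreement was not tested. The value is signed. Dhrs3 and H3c14 were both lower in ovariectomised mice at all 6 times, and the gap was smaller late for Dhrs3 and wider late for H3c14. For Map1s, a microtubule-binding protein, the late minus early value was -2.70 ± 0.39, and for Dhrs3, a retinal reductase, 1.39 ± 0.27 (adjusted p = 0.298 and 0.716). The antisense control level was no higher in ovariectomised mice at the early times and higher, by little at 24 h, at the late times. That level and a late change of the sex difference therefore cannot be told apart, and with it as a covariate 0 genes were called. With 3 pairs on each side and 4 residual degrees of freedom, changes of the sex difference over time were mostly not detectable here.

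**Figure D4:**
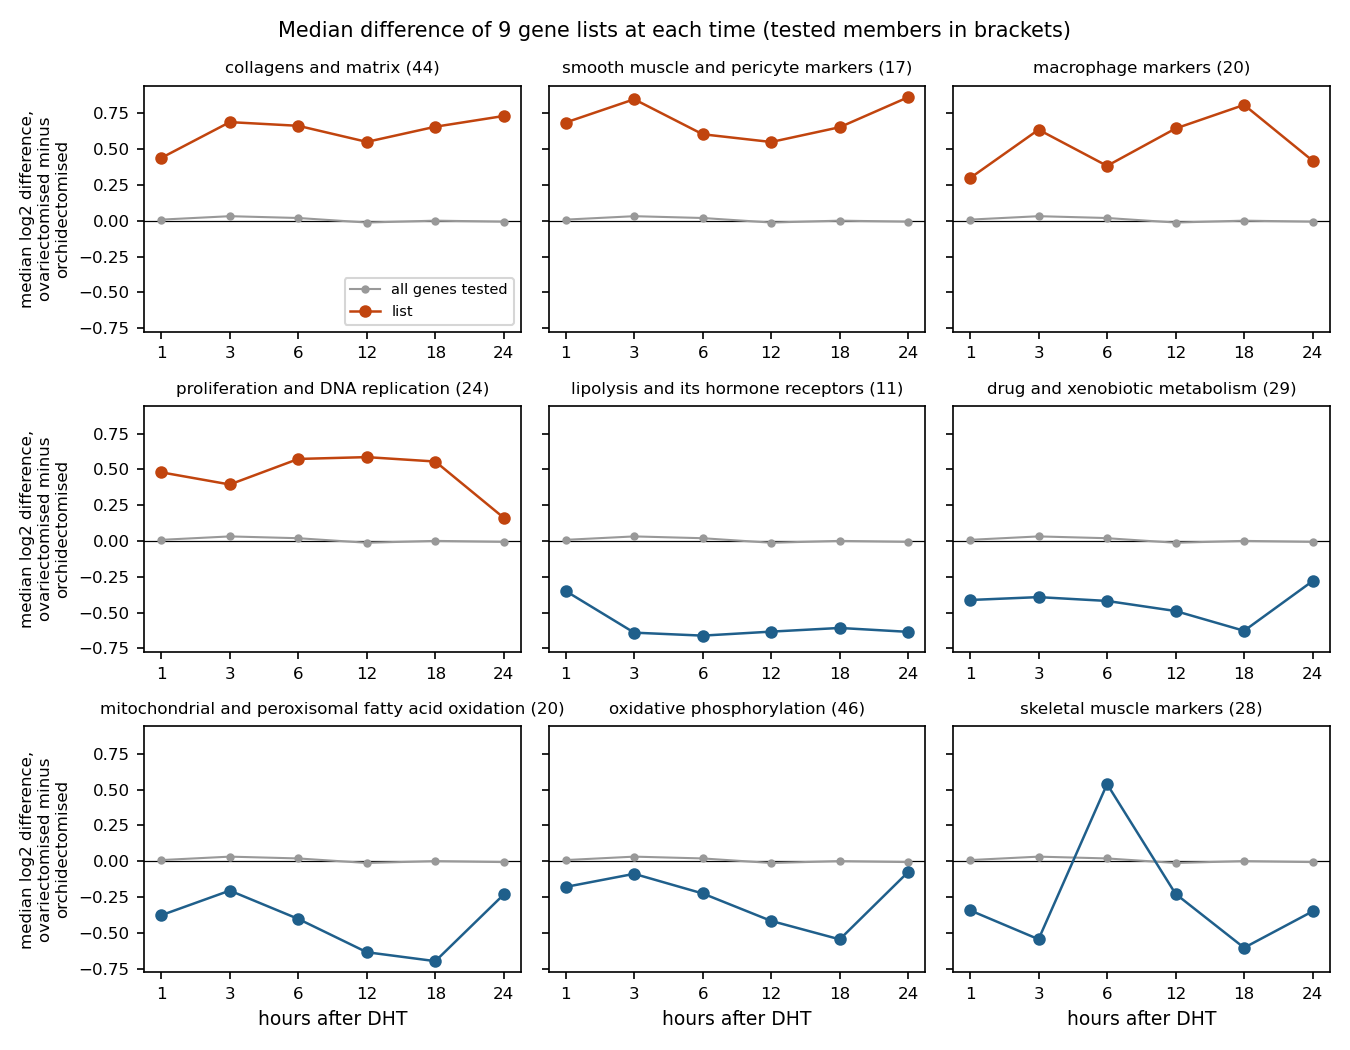
Median log2 difference (ovariectomised minus orchidectomised, vertical) of the tested members of 9 gene lists (number in brackets) at each time after DHT (horizontal, equally spaced times), with all 5522 genes in grey. Matrix, smooth muscle, macrophage and cell cycle lists (orange) stay above 0 and lipolysis, drug metabolism and oxidation lists (blue) below 0 at all 6 times, while skeletal muscle crosses 0 at 6 h.

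In the plot of list medians by time, the matrix list read 0.44, 0.69, 0.66, 0.55, 0.66 and 0.73 from 1 to 24 h and the smooth muscle list 0.69, 0.85, 0.60, 0.55, 0.65 and 0.86. Macrophage genes stood at 0.30, 0.64, 0.38, 0.65, 0.81 and 0.42. The cell cycle list gave 0.48, 0.40, 0.57, 0.59, 0.56 and 0.16, smallest at 24 h. Lipolysis genes read -0.35, -0.64, -0.66, -0.63, -0.61 and -0.64, smallest in size at 1 h. Fatty acid oxidation stood at -0.38, -0.21, -0.40, -0.64, -0.70 and -0.23 and oxidative phosphorylation at -0.18, -0.09, -0.23, -0.42, -0.55 and -0.07, both largest in size at 12 and 18 h. These medians rest on 1 array per sex and time, and their differences between times were not tested.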

How the data were processed

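The authors deposited a linear intensity for each probe set on each array, computed with MAS5 per the submitters' processing notes (version not given in the sources used here). Each array had a mean of 500 after trimming 2% at each end, so levels are relative, and detection calls were not used here. Of 12488 probe sets (66 controls), the platform annotation gave 10855 a single symbol, 396 several and 1237 none here, and 10839 matched RefSeq Entrez identifiers (GRCm38.p6). The probe set with the highest mean represented a gene. Autosomal genes above the 40th percentile of mean signal (115) were tested, 5522 of 7972.

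Signals were analysed as log2(signal + 16), which understates folds of dim genes, with limma 3.58.1 in R 4.3.3, with hours as a block and sex (5 residual degrees of freedom), a trend in eBayes, two-sided, Benjamini-Hochberg at 0.05. A second fit added sex by late time. The scripts were tested on simulated data. The number of arrays limits the precision.

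Named were the 15 largest called differences each way with the same sign in all pairs, up to 4 called members per list (else the 2 of smallest p), the 3 genes of smallest p each way for late against early, and fixed receptors and fat genes, 129 genes in all, a few of which appear only in counts. Genes, lists, motifs and the muscle covariate were chosen with earlier results of these data known, so lists carry no p-value. The pairing by hours comes from the labels and does not mean shared animals.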

Additional observations from a re-analysis of the deposited data

Results flagged for a closer look

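Among 258 sets of 6 arrays (129 named genes in each sex), 15 held an array far from its group, where the gap to the nearest other array divided by the group's range exceeded Dixon's 95% critical value. Chance flags about 1 in 20 such sets. In ovariectomised mice at 12 h the pancreatic genes Clps and Cel read 6081 and 12660, against 69.9 to 318 and 443 to 623 on the other 5 arrays, beside the high summed pancreas markers of that array. Neither gene was called. Also in ovariectomised mice, H3c14 read 3679 at 3 h (others 2491 to 2859.7), Rsad2 766 at 6 h (others 471 to 562), Ccl5 194.6 at 18 h (others 359.6 to 459.9) and Thrsp 16680 at 24 h (others 12598 to 13679.5).

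In orchidectomised mice the 1 h array accounted for 5 of the 9 flags. On it Mmp12 read 462.2 (others 107 to 161) and Atf3 434.6 (others 281 to 329), while Hsd3b7 read 1279 (others 1840.4 to 2097), Plin4 9518 (others 12191 to 13542) and Mt2 2147 (others 4797 to 7729). At 3 h Saa2 read 50.03 (others 182 to 245) and Slc7a7 55.47 (others 129 to 189.7). Mup3 read 650.5 at 12 h (others 316 to 386), and Sfrp1 31.54 at 24 h (others 109.7 to 153).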

How the results depend on the processing

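Leaving out each time pair in turn gave 450 to 609 called genes, 254 to 324 higher and 196 to 285 lower, against 726, 398 and 328. Without the 1 and 12 h pairs, which leaves 3 residual degrees of freedom, 330 were called, 215 higher and 115 lower (65.2% higher), and 311 of them were among the 726. Median centring gave 547 lower (33.9% higher). The skeletal muscle covariate gave 199 lower. Without the replicate block by time 796 were called, 672 of them among the 726. The other settings gave 628 to 871 calls. For late against early, 1 gene was called with all probe sets of a gene averaged (Col1a1, 1.51), and 0 to 1 when a pair was left out (Sod1, 2.57, without 1 h; Traip, -3.83, without 12 h). Against their main values, other probe sets of Cyp1a1 and Aqp1 gave 0.912 and 0.589. The causes were not tested. Of 111 called named genes, all 111 kept their direction under those of the 20 settings refitting the sex difference that tested them. In every setting that tested them 66 stayed past the threshold, among them 29 of the 30 largest. Some settings did not test every gene. The filter at the 60th percentile tested 587 of the 726 called genes, and the averaging of probe sets 692. Over the same 20 settings the medians of the matrix, smooth muscle, macrophage, cell cycle, lipolysis, triglyceride, oxidation and drug metabolism lists kept their sign, whereas those of the adipocyte differentiation, growth hormone and insulin, cholesterol, oestrogen response, immediate early, heat shock, circadian, endothelium, nerve, mesothelium, erythrocyte, kidney, adrenal, pancreas and mammary lists changed sign in at least 1. The acute phase and inflammation median was -0.04 with the stricter signal filter (2 of 8 called higher), and that of fatty acid synthesis reached 0.00 with quantile normalization. With median centring 7 androgen and glucocorticoid targets were called lower, 3 interferon genes higher and 17 oxidative phosphorylation genes lower, against 4, 6 and 13. Dim genes have a larger share of background, so small differences among them were not detectable at this signal.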

Other observations

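Of 18 endothelial genes tested 2 were called lower and 0 higher, of 11 nerve genes 1 higher and 1 lower, and of 6 mesothelium genes 2 higher and 1 lower, against 13.1% of all genes. Among endothelial genes, the lymphatic marker Lyve1 read 206 to 285 (median 249) on the ovariectomised arrays, against 350.0 to 434 (median 391) on the orchidectomised arrays, lower at -0.64 ± 0.13 without overlap (limma adjusted p = 0.00953). The water channel Aqp1 was lower at -0.67 ± 0.10 on its brighter probe set, and its dimmer one went the other way. In the mesothelium list Wt1 and Ezr, which links actin to the membrane, were higher (1.00 ± 0.18 and 0.68 ± 0.14), while Upk3b, a marker of mesothelium, was lower (-0.42 ± 0.09). In the nerve list the adhesion molecule Ncam1 read 372 to 669 (median 530.0) on the ovariectomised arrays, against 98.5 to 201 (median 145) on the orchidectomised arrays (1.68 ± 0.14, adjusted p = 4.19e-05), but its 2 other, dimmer probe sets gave -0.03 ± 0.30 and -0.05 ± 0.39. Scn7a, a sodium channel, was lower at -0.49 ± 0.13.

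Stress and sterol genes gave little, with 10.5% of immediate early and 8.70% of heat shock genes called, against 13.1% of all genes tested. Of 19 immediate early genes 2 were called higher, Atf3 (0.77 ± 0.11) and Ier3 (0.53 ± 0.13), and of 23 heat shock and unfolded protein genes 1 higher, the chaperone Hsp90b1 (0.25 ± 0.07, not called when any 1 pair was left out, with median centring, without a signal filter, with eBayes without a trend or with the muscle covariate), and 1 lower, Hspb8 (-0.53 ± 0.09). Of 17 cholesterol genes 0 were called by limma and 3 had an unadjusted p under 0.05. Those of smallest p were Fdft1, squalene synthase (-0.39 ± 0.13, adjusted p = 0.0676), and Scarb1, a lipoprotein receptor (0.26 ± 0.09, adjusted p = 0.0865). Hba-a1, a haemoglobin chain of red cells, was lower at -0.33 ± 0.09 (limma adjusted p = 0.0314). It was the single call among 8 erythrocyte genes (12.5%, against 13.1% of all genes tested).

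Across the 5522 genes, which are not independent replicates, the differences of 2 pairs correlated at 0.148 (3 and 12 h) to 0.583 (3 and 24 h). Pairs share the direction of the comparison but no array, and the order of these values was not tested.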
